A study of Homo sapiens with 40 samples.

Results

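In SETDB1 knockout A549 cells, 1573 of 26496 measured stretches of 100 kb had moved from the A to the B compartment of the nucleus, 157.3 Mb in all. These bins were chosen by the sign of the deposited Hi-C compartment signal: they had a value in every deposited column, a control (CT) signal above 0 and a knockout (KO) signal below 0. They made up 5.94% of the measured bins (95% Wilson interval 5.66 to 6.23). Another 13064 bins stayed in A, 10308 stayed in B and 1551 went the other way. The signal therefore chose the bins, and its values are given as a description; the histone marks, CTCF and the edges of topologically associating domains (TADs) were not used to choose them.

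A549 is an established human lung adenocarcinoma line that carries the K-RAS G12S allele, and all groups were this line. Control cells were labelled only as control, and SETDB1 was disrupted with CRISPR/Cas9 from the PX458 plasmid in the KO cells. The sources used here give neither whether the KO cells were 1 clone nor whether replicates were separate cultures, so the spread between replicates may be technical. Of the 40 samples of the series, the values below rest on in situ Hi-C with 2 libraries per genotype and on 5 ChIP-seq targets, CTCF, H3K4me3, H3K27ac, H3K27me3 and H3K9me3, each with 2 libraries in either genotype. RNA-seq with 3 libraries per genotype served to check the labels.

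Chromatin in the nucleus separates into an A compartment, which is open, gene-rich and active, and a B compartment, which is compact, silent and often held at the nuclear lamina. SETDB1 is a methyltransferase that places H3K9me3, the mark of constitutive heterochromatin, mainly at silenced repeats and zinc finger genes. H3K27me3 is placed by Polycomb repressive complex 2 and marks facultative heterochromatin. H3K27ac marks active enhancers and promoters, H3K4me3 marks promoters, and CTCF is the protein that stops loop extrusion by cohesin at many TAD edges.

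SETDB1 transcripts were at 36.4, 39.7 and 38.4 CPM (counts scaled to the library total) in the control libraries and at 23.7, 21.6 and 21.0 in the KO libraries. The KO libraries all lay below the control libraries, and transcript remained in each of them. The epithelial keratin gene KRT18 was at 755 to 783 CPM in control libraries and 2480 to 2715 in KO libraries, whereas the surfactant gene SFTPC of alveolar type II cells stayed between 0.0554 and 0.177 in all 6 libraries. RNA-seq libraries held 18065062 to 48364919 counts, and the depth of the Hi-C and ChIP-seq libraries is unknown, since no read counts were used for them. The deposited data gave 1 peak list per mark and genotype and 1 TAD list per genotype. They carry no replicate error and allow no test over samples, and the 95% Wilson intervals beside them cover counting error over bins only, although neighbouring bins are not independent. Differences in these values between genotypes, or between the switching bins and the others, are therefore descriptions of single lists, and none was tested. All positions are on hg19.

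The switching bins crossed from weakly A to weakly B. Their mean control signal was 0.204 in replicate 1 and 0.194 in replicate 2, and their mean KO signal was -0.271 in replicate 1 and -0.272 in replicate 2. The gap between genotypes is set by the choice of the bins. In the columns that combine each genotype, the signal was 0.199 ± 0.164 in control and -0.271 ± 0.239 in KO cells (SD over 1573 bins). The median fall was -0.43 signal units, with 80% of the bins between -0.81 and -0.18, while the median difference over all measured bins was -0.044. The signal was lower by more than 0.5 in 612 bins (38.9%) and by more than 1 in 71 bins. Few bins were strongly A in control or strongly B in KO cells: 84 had a control signal above 0.5 and 250 (15.9%) a KO signal below -0.5. In 581 bins the signal stayed within 0.25 of 0 in both genotypes.

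Both control replicates lay above both KO replicates in 1556 switching bins (98.9%), against 48.0% of all measured bins. All 4 replicates had the sign asked of the combined columns in 1317 bins (83.7%), and the other 256 had at least 1 replicate across 0. The median difference between replicates of the same bin was 0.052 in control and 0.040 in KO cells, close to 0.049 and 0.040 over all bins. With limma's moderated test on the 4 replicate columns and Benjamini-Hochberg adjustment at 0.05, 1521 switching bins (96.7%) were lower in KO, 0 were higher and 52 were not called. The same call was made for 37.3% of all bins, and 58.8% were called in either direction. As these replicates also make up the columns that chose the bins, this count describes the choice and supports nothing.

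Bins were also taken from 1 replicate of each genotype and read in the other. Over all bins the replicates correlated at r = 0.993 in control and 0.996 in KO cells, and they may be technical. Agreement between them was thus close to given, and the values are a description. The share of all bins lower in KO within a single replicate was not computed. Of 1615 bins that switched in replicate 1, 98.2% were lower in KO in replicate 2, with a mean difference of -0.45 there against -0.47 in the choosing replicate, and 1318 (81.6%) switched again. Of 1567 bins that switched in replicate 2, 99.0% were lower in KO in replicate 1, with a mean of -0.47 against -0.48, and the 1318 shared bins were 84.1%. At the threshold itself, the 5 lowest control signals among the switching bins ran from 0.000136 to 0.000493 and the 5 highest KO signals from -0.00247 to -0.000128. Just outside it, the 5 highest control signals among bins that stayed B ran from -0.00121 to -4.31e-05, and the 5 lowest KO signals among bins that stayed A from 0.000467 to 0.00114.

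**Figure D1:**
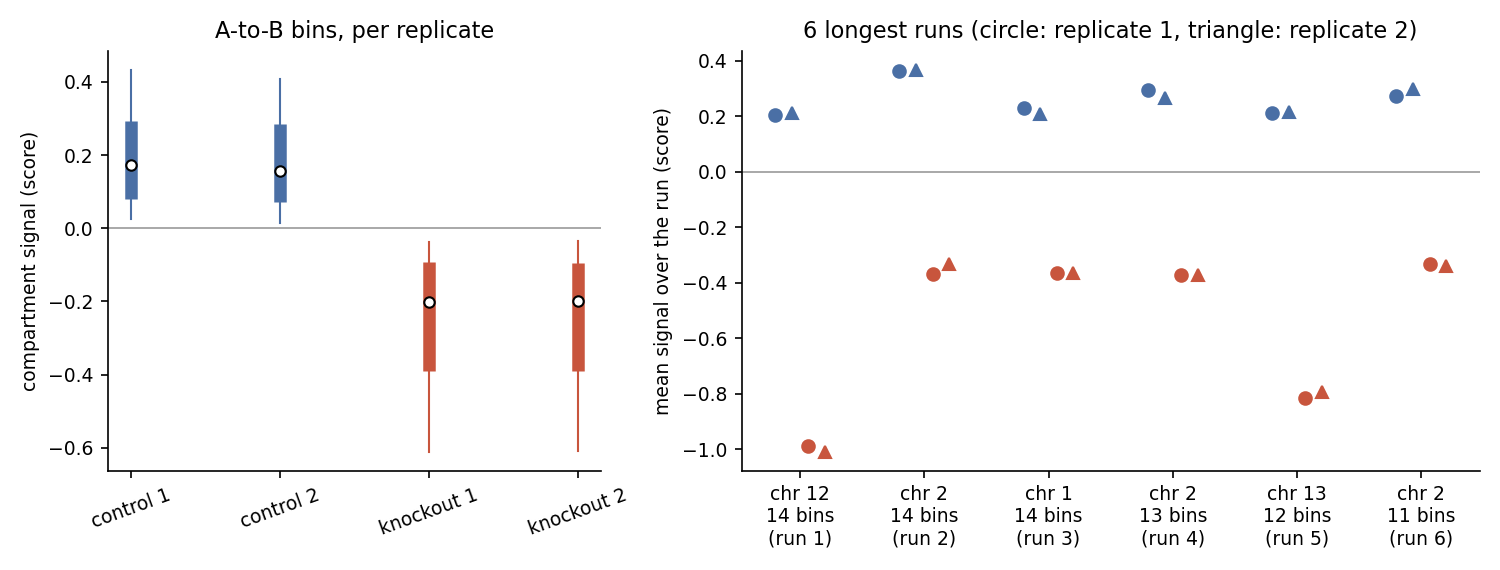
Left, compartment signal (deposited score, no unit) of the 1573 A-to-B bins in each Hi-C replicate; dots are medians over bins, thick bars the middle 50% and thin lines the 10th to 90th percentile. Right, the mean signal of each of the 6 longest runs in control (blue) and KO (red) replicates, where the 2 replicates of a genotype nearly coincide and the KO means reach -0.99 and -1.01 in the chromosome 12 run.

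The bins were spread over every chromosome with a value but not evenly. Chromosome 4 had the highest share, with 165 of 1828 bins (9.03%, interval 7.80 to 10.4), followed by chromosome 5 with 129 bins (7.52%) and chromosome 8 with 103 bins (7.40%). The lowest shares were those of chromosome 20 with 15 bins (2.58%, interval 1.57 to 4.22), chromosome 21 with 9 bins (2.80%) and chromosome 16 with 22 bins (3.17%). These chromosomes also have fewer bins behind each share. Only bins that are A in control cells can switch, and over those chromosome 4 was again highest (16.9%), with chromosome 8 (14.3%) then ahead of chromosome 5 (13.9%). Chromosomes 20 (4.37%) and 21 (4.95%) were again lowest, but chromosomes 17 (5.65%) and 22 (5.74%) then lay below chromosome 16 (6.01%). Chromosome 4 had a high share in the other direction as well, with 16.8% of its bins going from B to A against 5.85% over all chromosomes. Its switching bins had little H3K9me3 in KO cells, with 3.48% of their length inside peaks, while those of chromosome 13 had 24.1%. This was not particular to chromosome 4, since the switching bins of chromosomes 1 (2.75%), 19 (2.18%) and 22 (0.264%) had less.

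Adjacent switching bins formed 783 runs, of which 445 (56.8%) were a lone bin and held 28.3% of the switching bins. Another 168 runs had 3 bins or more and held 788 bins (50.1%), and 66 runs had 5 bins or more and held 451 bins (28.7%). The longest runs, 3 in number, were 14 bins, or 1400 kb. Bins going from B to A were gathered into fewer and longer runs, 419 in all with a longest of 42 bins, and 61.1% of those bins lay in runs of 5 or more. The fall in signal was larger in longer runs: the mean difference was -0.32 ± 0.17 in lone bins, -0.41 ± 0.20 in pairs, -0.49 ± 0.24 in runs of 3 to 4 bins and -0.65 ± 0.28 in runs of 5 or more (SD over bins). Lone bins also had the lowest control signal, 0.140 against 0.261 in the runs of 5 or more. Run length and the fall both come from the signal that chose the bins, and a lone bin adjoins no other switching bin. The trend is therefore a description and no separate result.

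**Figure D2:**
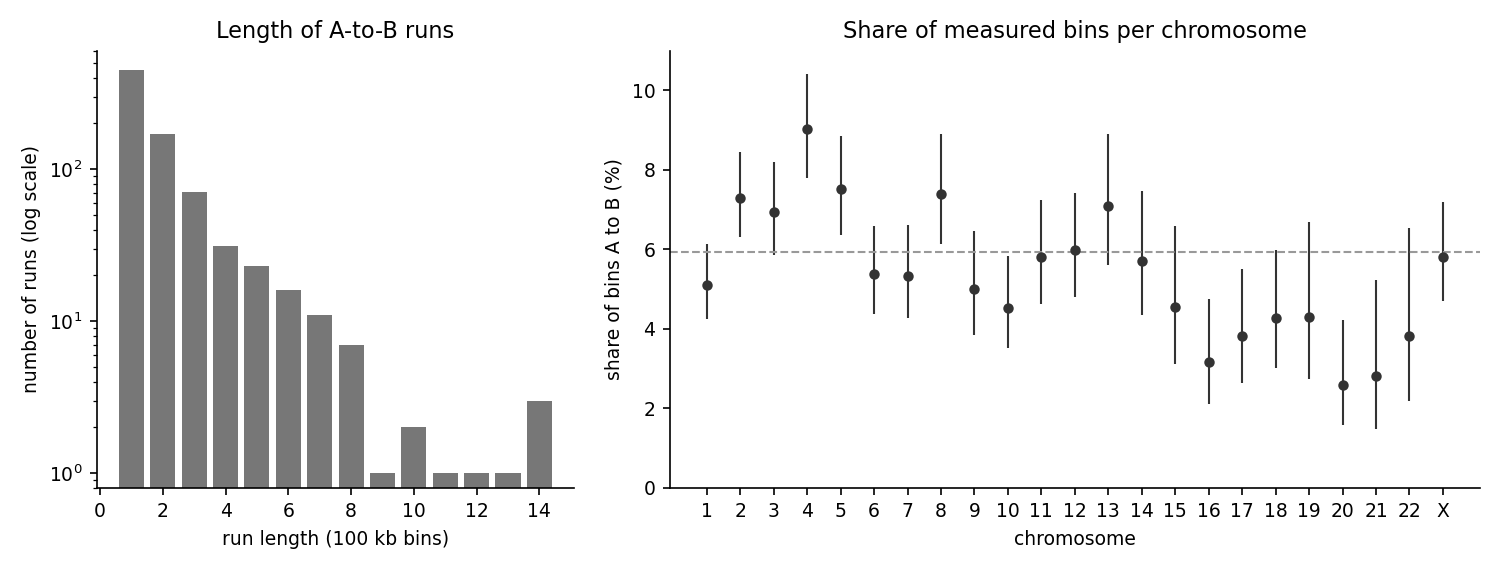
Left, number of runs of adjacent A-to-B bins by length in 100 kb bins, on a log scale; 445 of 783 runs are a lone bin and 3 reach 14 bins. Right, share of measured bins going from A to B on each chromosome with 95% Wilson intervals (counting error only) and the share over all chromosomes, 5.94%, as a dashed line; chromosome 4 lies highest at 9.03% and chromosome 20 lowest at 2.58%.

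Most runs lay at the rim of the A compartment. Of the switching bins, 704 (44.8%, interval 42.3 to 47.2) were next to a bin that was B in control cells, against 905 (6.93%, interval 6.50 to 7.38) of the bins that stayed A. The median distance to the nearest control B bin was 2 bins for switching bins and 10 for bins that stayed A. The switching bins also had a lower control signal than the bins that stayed A, and its part in this closeness was not tested. Of the 783 runs, 487 (62.2%) had a stayed-A bin on 1 side and a stayed-B bin on the other, so that the border between the compartments had moved into former A chromatin. Another 122 runs (15.6%, 354 bins) had A on both sides and formed new B islands, and 116 runs (14.8%, 254 bins) had B on both sides and were A islands that closed. The remaining 58 runs touched a bin without a value or a bin going from B to A.

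The 3 settings differed in their chromatin. Runs inside A had the highest H3K27me3, at 31.7% of their length in control and 32.1% in KO peaks, and little H3K27ac, at 1.14% and 0.789%. Runs that had been A islands inside B had the lowest H3K27me3, at 12.8% and 10.1%, and the highest H3K27ac, at 4.22% and 3.98%. H3K9me3 went from 15.4% to 10.7% in the runs inside A and from 10.5% to 14.0% in the former A islands. Runs at a border lay between them for H3K27me3, at 25.1% and 20.7%, and their H3K9me3 went from 11.8% to 11.5%.

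Across the 487 border runs, the marks differed steeply between the A side and the B side. In KO cells, H3K9me3 peaks covered 1.23% of the last bin on the A side, 11.5% of the run, 25.8% of the first bin on the B side and 47.2% of the third bin on the B side. In control cells the same positions had 8.24%, 11.8%, 12.7% and 10.5%, nearly level. H3K27me3 in control cells had its maximum just outside the run, with 43.0% of the first B bin, 25.1% of the run and 7.74% of the last A bin. In KO cells H3K27me3 was at 24.9%, 20.7% and 8.89% there, with less difference between the run and the first B bin. H3K27ac was 6.28% of the last A bin, 1.87% of the run and 0.378% of the first B bin in control cells, and 7.09%, 1.97% and 0.553% in KO cells. The runs were thus low in acetylation in control cells too, and the drop stood at the same place in both genotypes. The compartment signal was lower in KO on both sides, at 0.453 and 0.223 in the last A bin and -0.172 and -0.560 in the first B bin.

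**Figure D3:**
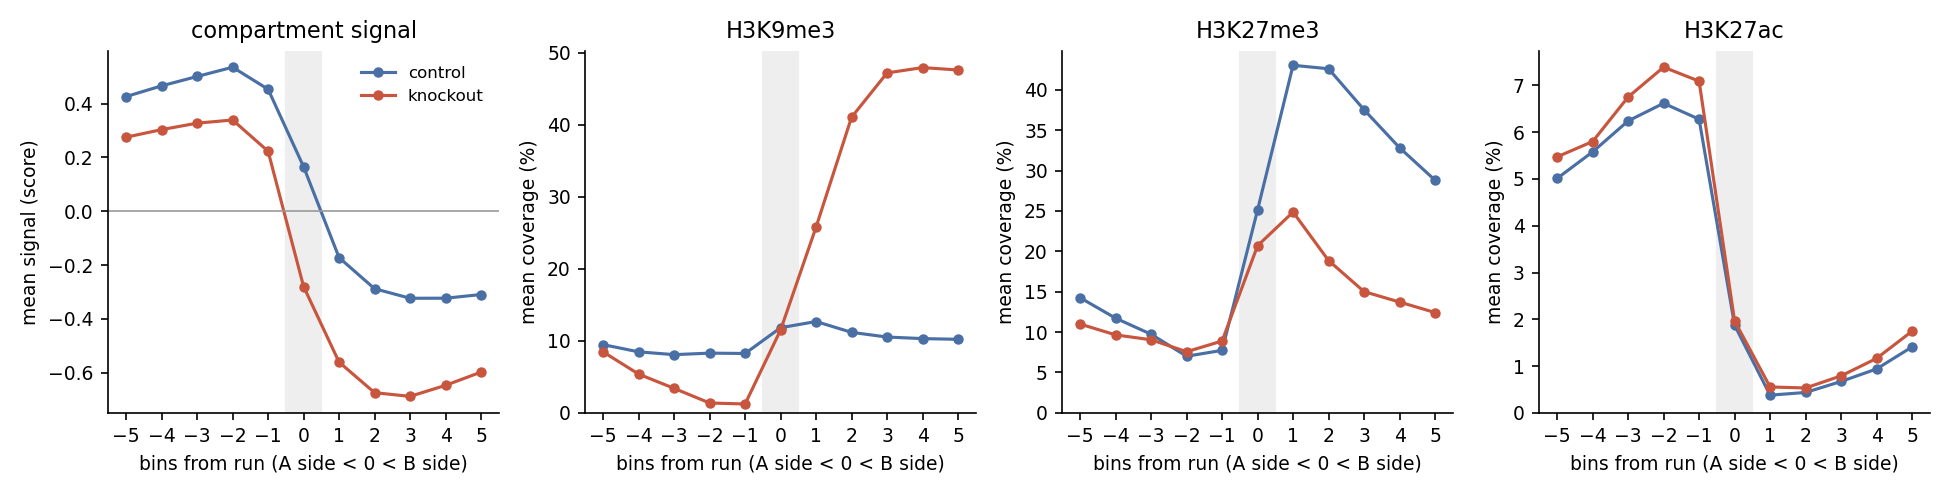
Mean compartment signal (score) and mean share of each bin inside H3K9me3, H3K27me3 and H3K27ac peaks (%) across the 487 runs with a stayed-A bin on 1 side and a stayed-B bin on the other; the x axis counts 100 kb bins from the run (grey, all its bins averaged), A side negative. H3K9me3 in KO (red) climbs from 1.23% beside the run on the A side to 47.2% at the third bin of the B side, while H3K27me3 in control (blue) has its highest value, 43.0%, in the first B bin.

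H3K9me3 peaks covered a mean of 12.5% of the switching bins in control and 11.8% in KO cells, a near balance made of opposite differences. The difference of -0.78 percentage points turned to 1.77 in the 482 switching bins whose signals were not among the 10% of bins nearest to 0 in either genotype. In bins that stayed A the mean went from 9.58% to 0.973%, and in bins that stayed B from 15.3% to 56.2%. The median switching bin went from 9.22% to 1.94%: coverage was lower in KO in 1136 bins (72.2%), higher in 381 (24.2%) and equal in 56, against 60.5% lower and 32.5% higher over all bins. It was higher by 10 percentage points or more in 225 bins (14.3%) and lower by as much in 435 (27.7%), against 28.2% and 22.5% of all bins. The share of bins with at least 1 peak went from 1502 (95.5%, interval 94.3 to 96.4) to 914 (58.1%, interval 55.7 to 60.5), against 88.1% to 15.8% in bins that stayed A and 89.3% to 89.6% in bins that stayed B. Over all bins it went from 89.0% to 47.7%. Of the 6534 control H3K9me3 peaks centred in switching bins, 28.5% overlapped a KO peak, a share between the 7.20% of bins that stayed A and the 74.6% of bins that stayed B. Over all bins that share was 40.4%. The H3K9me3 lists differed in kind over all measured bins, with 99986 control peaks of a median 2303 bp and 52545 KO peaks of a median 4477 bp. With 1 list per genotype, a difference in enrichment or peak calling and one between genotypes cannot be told apart.

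H3K27me3 covered more of the length of these bins than any other mark's peaks in both genotypes, although H3K9me3 had a peak in more of them in control cells (95.5% against 79.6%) and lists from different antibodies need not be comparable. It covered 24.4% of their length in control and 21.6% in KO cells, above both the bins that stayed A (6.97% and 8.54%) and the bins that stayed B (20.8% and 10.7%). Bins that stayed B were richer in it in KO cells where their KO signal was like that of switching bins. Between -0.388 and -0.200, they had 20.5% in both genotypes, and switching bins had 26.3% and 24.3%. At least 25% of the bin was covered in 611 switching bins (38.8%) in control and in 558 (35.5%) in KO cells, against 21.6% and 15.8% of all measured bins. Coverage was lower in KO in 740 bins (47.0%) and higher in 570 (36.2%), against 32.3% and 29.1% of all bins. Of the control H3K27me3 peaks in switching bins, 69.9% overlapped a KO peak, a share between the 76.8% of bins that stayed A and the 37.7% of bins that stayed B. Over all bins that share was 52.6%. The switching bins held 8295 of 88407 H3K27me3 peaks in measured bins in control (9.38%) and 7539 of 65114 in KO cells (11.6%). Their own number was thus lower in KO, and their share was higher because the total was lower still, mostly in bins that stayed B, with 49725 and 26633 peaks.

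Active marks had slightly lower means in KO cells. H3K27ac covered 2.08% of the switching bins in control and 2.00% in KO cells, and 841 (53.5%) and 798 (50.7%) bins held a peak. Over all bins, 51.6% and 57.4% held one. In 703 switching bins H3K27ac was found in both genotypes, in 138 in control alone and in 95 in KO alone, and 637 had none in either. The same split over all bins was not computed, so these counts are a description. H3K4me3 covered 2.64% and 2.54% and was present in 77.4% and 74.6% of the bins, against 67.8% and 73.2% of all bins. In the 482 bins away from 0 these gaps were wider, at 1.85% and 1.51% for H3K27ac and 2.44% and 2.06% for H3K4me3. Both active marks stood between bins that stayed A, with H3K27ac at 7.53% and 7.95%, and bins that stayed B, with 0.355% and 0.599%. In those 2 classes, and over all bins, the KO value was the higher one for both marks, which was not so in the switching bins. H3K27ac coverage was higher in KO in 515 switching bins (32.7%) and lower in 421 (26.8%), against 39.3% and 21.3% of all bins. The lower mean thus came from fewer bins with larger falls. A loss of 10 percentage points or more was found in 11 bins (0.70%) and a gain as large in 1 bin (0.064%). Over all bins these shares were 1.06% and 1.07%. H3K4me3 coverage was higher in KO in 661 switching bins (42.0%) and lower in 638 (40.6%), against 51.5% and 25.8% of all bins.

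CTCF peaks were more numerous in KO cells, as they were over all bins. The switching bins with a CTCF peak went from 711 (45.2%, interval 42.8 to 47.7) to 993 (63.1%, interval 60.7 to 65.5), against 49.0% to 60.4% of all bins. The CTCF peaks centred there numbered 1194 in control and 2040 in KO cells. Of the control peaks 64.5% overlapped a KO peak, against 77.1% in bins that stayed A, 25.8% in bins that stayed B and 55.4% over all bins. Coverage was higher in KO in 878 bins (55.8%) and lower in 213 (13.5%), against 51.7% and 17.2% of all bins and 63.2% and 10.1% of bins that stayed A. Chromatin for CTCF was sheared and that for the histone marks cut with MNase, so coverage is not compared between CTCF and the histone marks.

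**Figure D4:**
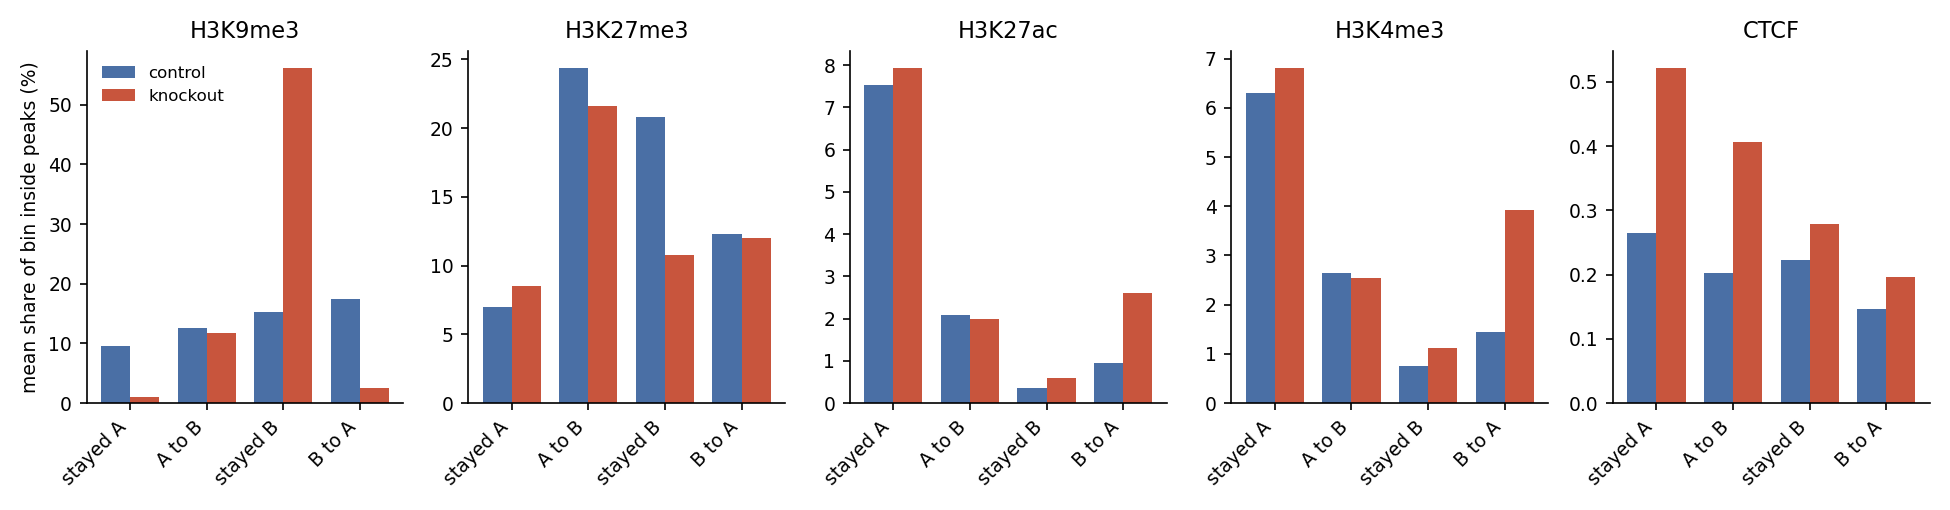
Mean share of a 100 kb bin inside the deposited peaks of each mark (%), in control (blue) and KO (red) cells, for bins that stayed A (13064), went from A to B (1573), stayed B (10308) or went from B to A (1551); 1 peak list per bar, so no error bar, and each panel has its own axis from 0. In the A-to-B bins H3K9me3 is level at 12.5% and 11.8% and H3K27me3 is the highest of the 4 classes in both genotypes.

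Since the switching bins had a low control signal, they were also set beside bins that stayed A at the same signal. Among bins with a control signal of 0.000136 to 0.0732, the lowest quartile of the switching bins, 393 switching bins had H3K27me3 coverage of 29.0% in control cells and 287 bins that stayed A had 14.5%. Their control H3K9me3 was alike, at 12.6% and 13.6%, and H3K27ac was at 1.69% and 2.10%. In KO cells they parted: H3K9me3 was 14.7% in the switching bins and 1.87% in the others, and H3K27ac was 1.66% and 3.23%. The next quartile, up to 0.163, gave control H3K27me3 of 23.9% in the switching bins and 12.0% in the others, and KO H3K9me3 of 13.3% and 1.73%. A similar gap was found up to 0.285, with control H3K27me3 of 22.6% and 12.7%. In these 3 strata of like control signal, the switching bins thus had more H3K27me3 in control cells than the bins that stayed A. Above 0.285 the mean control signals differed, at 0.425 and 0.715, so the bins there are not matched.

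In the same way, switching bins were set beside bins that stayed B at the same KO signal. Between -0.388 and -0.200, 393 switching bins had KO H3K9me3 coverage of 6.59% and 1169 bins that stayed B had 13.4%. Their KO H3K27ac was alike, at 1.80% and 1.58%, although in control cells it was 2.01% and 0.901%. Closest to 0, above -0.0929, KO H3K9me3 was 3.96% in 394 switching bins and 4.75% in 432 bins that stayed B. Below -0.388 the means were 32.1% and 67.9%, but the switching bins there had a weaker mean KO signal, -0.613 against -0.832.

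The switching bins were uneven in how much H3K9me3 they carried in KO cells. There was no H3K9me3 peak in 659 bins (41.9%), under 10% coverage in 466, 10% to under 50% in 324 and 50% or more in 124 (7.88%). Over all measured bins the 4 groups made up 52.3%, 13.9%, 10.2% and 23.6%. Among bins that stayed B, the last group made up 59.3%. The mean KO signal went from -0.182 ± 0.154 in bins without a peak, over -0.226 ± 0.168 and -0.337 ± 0.233, to -0.741 ± 0.263 in bins covered by 50% or more (SD over bins), while the control signal differed little, from 0.211 to 0.178. The Spearman correlation of KO H3K9me3 coverage with the difference in signal was -0.367 across the 1573 bins, which share 4 libraries and sit next to one another, and is given as a description.

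The 4 groups differed in the other marks. The 124 bins with the most H3K9me3 went from 17.3% to 76.7% H3K9me3 coverage, from 21.7% to 6.72% H3K27me3 and from 1.36% to 0.191% H3K27ac. Their H3K4me3 went from 1.76% to 0.527%. In the 466 bins with under 10% H3K9me3, H3K27me3 was at 30.8% and 30.4% and H3K27ac at 1.72% and 1.92%. The 324 bins with 10% to under 50% were the richest in H3K27me3, at 44.9% in control and 38.8% in KO cells. The 659 bins without an H3K9me3 peak had the most H3K27ac, at 3.03% and 2.97%, and little H3K27me3, at 10.3% and 9.67%. In 511 switching bins (32.5%) neither H3K9me3 nor H3K27me3 reached 10% coverage in KO cells, a state held by 75.5% of the bins that stayed A and 11.6% of those that stayed B. No peak of either mark was listed in KO cells in 256 switching bins. Over all measured bins, 52.3% had no KO H3K9me3 peak and 50.1% no KO H3K27me3 peak, against 41.9% and 24.6% of switching bins. The shares of all bins in these 2 joint states were not computed, so the counts are not read as particular to the switching bins.

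**Figure D5:**
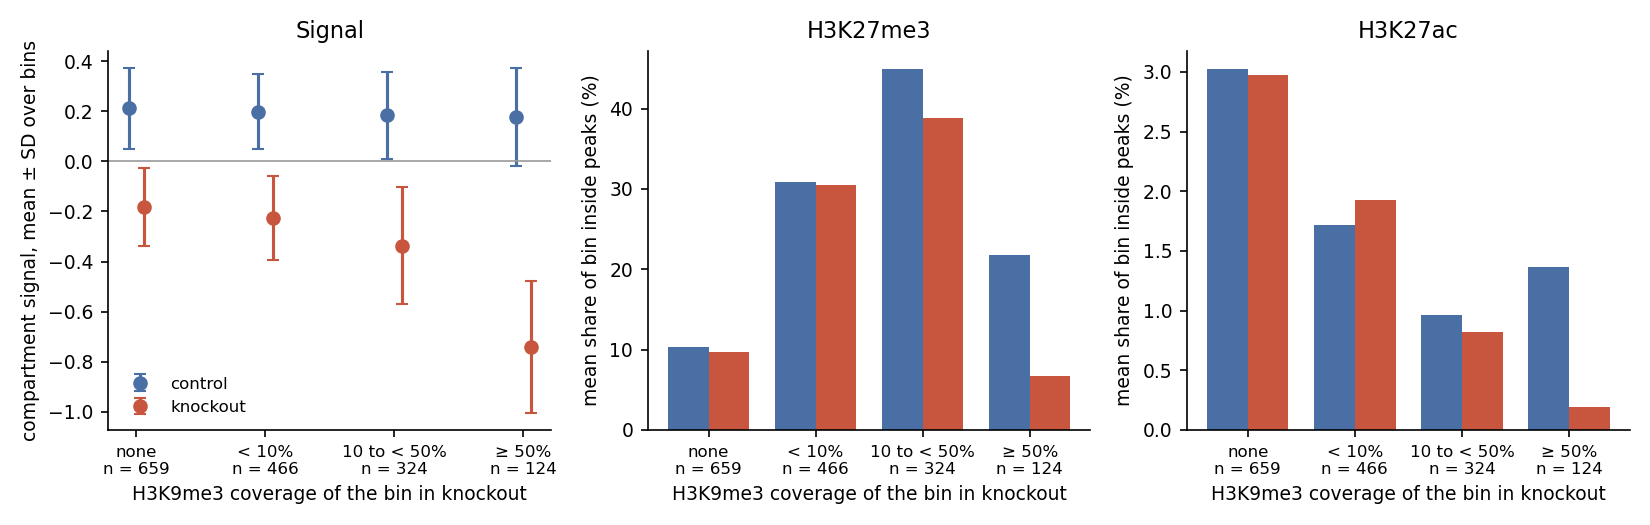
The 1573 A-to-B bins grouped by the share of the bin inside KO H3K9me3 peaks: left, compartment signal (score) as mean ± SD over bins; middle and right, mean share of the bin inside H3K27me3 and H3K27ac peaks (%), control blue and KO red, 1 list per bar. Bins covered by 50% or more have a mean KO signal of -0.741 and H3K27me3 of 21.7% in control and 6.72% in KO, while bins without an H3K9me3 peak have H3K27ac of 3.03% and 2.97%.

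The size of the fall divided the bins in the same manner. In the quartile with the largest fall, below -0.61, H3K9me3 went from 13.7% to 29.7%, H3K27me3 from 24.0% to 15.8% and H3K4me3 from 1.99% to 1.30%. In the quartile with the smallest fall, above -0.28, H3K9me3 went from 11.3% to 3.73%, H3K27me3 from 20.2% to 20.5% and H3K4me3 from 2.95% to 3.29%. Longer runs resembled the first of these. Runs of 5 bins or more had H3K9me3 of 13.5% in control and 21.2% in KO cells, and 18.8% of their bins were covered by 50% or more in KO cells. Lone bins went from 11.3% to 5.63%, with 1.35% of them so covered. Of the 66 runs of 5 bins or more, 9 had a mean KO H3K9me3 of 50% or more, 21 had 10% to under 50% and 36 had under 10%. H3K9me3 was higher in KO in all 9 of the first, in 18 of the 21 and in 1 of the 36. H3K27ac was lower in KO in 40 of the 66 runs and higher in 25, and CTCF coverage was higher in 56. Over all single bins, H3K27ac was lower in 21.3% and higher in 39.3%, and CTCF was lower in 17.2% and higher in 51.7%. Runs of like length in the other classes were not counted, so these counts are not set apart from the differences over all bins.

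The 6 longest runs showed each of these states. The run at chr12:115000001-116400000 (14 bins) lay between an A and a B neighbour and had the largest fall among the 6, with mean control signals of 0.204 and 0.212 and KO signals of -0.988 and -1.01 in the replicates. Every bin of it was above 0 in both control replicates and below -0.5 in both KO replicates. H3K9me3 went from 18.0% to 86.7% of the run, H3K27me3 from 19.4% to 2.12% and H3K27ac from 2.30% to 0.357%. H3K9me3 covered 21.2% to 100% of its single bins in KO cells. CTCF peaks, counted in each bin they overlap, went from 10 to 29 there, and TAD edges from 3 to 1.

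The run at chr2:133400001-134800000 (14 bins) lay inside A. Its mean signals were 0.365 and 0.367 in control and -0.369 and -0.334 in KO replicates. H3K9me3 went from 11.3% to 39.3% and H3K27ac from 2.46% to 0.332%, while H3K27me3 was low in both genotypes, at 9.46% and 6.23%. The run at chr13:74700001-75900000 (12 bins), also inside A, had signals of 0.211 and 0.215 in control and -0.815 and -0.792 in KO replicates. Its H3K9me3 went from 10.8% to 67.9%, with little H3K27me3 in either genotype (3.82% and 1.93%). A run of 13 bins at chr2:107100001-108400000 went from 20.2% to 31.6% H3K9me3 and from 17.5% to 4.54% H3K27me3. These runs all had more H3K9me3 and less H3K27ac in KO cells.

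The other long runs had little H3K9me3 in KO cells. At chr1:55800001-57200000 (14 bins) the signals were 0.230 and 0.208 in control and -0.364 and -0.365 in KO replicates, and H3K9me3 went from 12.4% to 0.222%. H3K27me3 was nearly absent there, at 0.54% and 1.48%, and H3K27ac went from 2.51% to 1.27%. The highest H3K9me3 coverage of a bin of this run in KO cells was 2.695%. At chr2:30900001-32000000 (11 bins), inside A, the signals were 0.271 and 0.299 in control and -0.334 and -0.340 in KO replicates. H3K9me3 went from 20.5% to 2.93% and H3K27me3 stayed at 26.6% and 24.3%. The KO signals of these runs were close to that of the 14-bin run on chromosome 2, which had 39.3% H3K9me3.

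The bins with the 5 largest falls lay in 2 runs. On chromosome 5, 4 adjacent bins from 174400001 to 174800000 belonged to a run of 7 bins and had been strongly A, with combined control signals of 0.976 to 1.20 and KO signals of -0.602 to -0.708. The bin starting at 174600001, with the largest fall of all, had 1.15 and 1.26 in control and -0.585 and -0.631 in KO replicates. H3K9me3 covered 16.9% to 28.9% of these 4 bins in control and 49.5% to 61.1% in KO cells. H3K27ac was absent from all 4 in KO cells. In control cells it covered 0.946%, 0%, 2.93% and 6.55% of them, in the order of their start, with the bin starting at 174500001 at 0% in both genotypes. The order is that of 174400001, 174500001, 174600001 and 174700001. The fifth bin, chr3:35800001-35900000, went from 0.339 and 0.316 to -1.31 and -1.35 and from 7.12% to 93.1% H3K9me3.

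Among runs of 3 bins or more, the 5 largest gains of H3K9me3 included that chromosome 3 run, chr3:35600001-36000000, a former A island whose coverage went from 5.70% to 80.5%. The others were the chromosome 12 and 13 runs above, chr6:73300001-74000000 (2.39% to 66.1%) and chr7:33800001-34300000 (11.2% to 66.7%). The KO signal was strongly negative in them, with run means from -0.528 to -1.18. All 5 had less H3K27ac in KO cells. In the chromosome 7 run, H3K27ac went from 3.85% to 0.504% and H3K4me3 from 3.99% to 1.25%.

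The 5 largest losses of H3K9me3 were found at chr2:2800001-3100000 (46.6% to 12.3%), chr6:77700001-78000000 (27.6% to 0%), chr5:173500001-173800000 (36.7% to 11.1%), chr4:33600001-33900000 (36.3% to 11.4%) and chr7:32200001-32500000 (26.6% to 3.27%). All were runs of 3 bins. The runs on chromosomes 2, 5 and 7 were covered by Polycomb marks in both genotypes, with H3K27me3 at 61.3% and 45.2%, 63.9% and 61.6%, and 60.6% and 55.2%. The runs on chromosomes 4 and 6 had no H3K27me3 in KO cells, and their KO signals were near 0, with replicate means of -0.0938 and -0.131 on chromosome 4 and -0.0241 and -0.0568 on chromosome 6. The chromosome 5 run fell furthest of the 5, from 0.715 and 0.846 to -0.135 and -0.186.

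The largest gains and losses of H3K27me3 fell in different kinds of run. Its largest gain, at chr8:129900001-130700000 (8 bins, inside A), was from 8.38% to 45.2%, while H3K9me3 there went from 23.2% to 1.93% and the signal from 0.325 and 0.328 to -0.172 and -0.179. Gains also occurred at chr14:89900001-90300000 (27.9% to 55.7%) and chr15:50100001-50500000 (7.87% to 34.6%), and H3K9me3 was lower in KO in both. The largest losses were at chr2:29900001-30400000 (71.6% to 16.9%), chr8:20900001-21500000 (70.1% to 20.8%) and chr3:55400001-55700000 (35.0% to 2.77%). In these 3 runs H3K9me3 was higher in KO cells, going from 17.3% to 52.2%, from 28.6% to 66.3% and from 7.45% to 43.4%. Across all switching bins the changes of the 2 marks had a Spearman correlation of -0.173, a description over bins that share their libraries.

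The largest losses of H3K27ac were in runs of 3 or 4 bins. At chr8:34700001-35000000, a former A island, coverage went from 5.90% to 0% while H3K9me3 went from 59.6% to 100% and the signal from 0.120 and 0.0705 to -0.951 and -1.01. The largest loss in percentage points, -6.55 against -5.90 in the chromosome 8 run, was at chr17:33300001-33600000, also with B on both sides. H3K27ac went from 26.8% to 20.2% there and so remained high in KO cells, although the signal went from 0.0261 and 0.0584 to -0.373 and -0.345. At chr19:33600001-34000000 it went from 8.86% to 4.59%. H3K9me3 in KO cells was 1.25% in the chromosome 17 run and 0.673% in the chromosome 19 run.

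TAD edges, which come from the same Hi-C libraries as the signal, were nearly as common in the switching bins as in the A compartment. An edge, on a grid of 20 kb, lay in 476 switching bins (30.3%, interval 28.0 to 32.6) in control and in 488 (31.0%, interval 28.8 to 33.4) in KO cells. Bins that stayed A had 31.6% and 31.7%, and bins that stayed B had 13.3% and 13.9%. The edges were mostly the same in both genotypes: 444 bins had one in both, 32 in control alone, 44 in KO alone and 1053 in neither. Of 512 control edges in switching bins, 94.1% (interval 91.8 to 95.9) were matched by a KO edge within 20 kb, as were 94.7% of all control edges. Of 538 KO edges there, 92.8% were matched by a control edge. Edges with a CTCF peak within 20 kb went from 47.7% to 68.6% in switching bins and from 50.5% to 68.0% over all bins.

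Edges were scarce where the switch was deepest. In the quartile with the largest fall, 16.0% of bins had an edge in control and 15.8% in KO cells, against 36.8% and 37.3% in the quartile with the smallest fall. The 124 bins with 50% or more H3K9me3 in KO cells had an edge in 7.26% in both genotypes, so edges were few there in control cells too. This was not particular to switching bins: bins that stayed B with as much KO H3K9me3 had an edge in 5.25% and 4.76%. At the ends of the runs, 30.5% of 758 borders with stayed-A bins had a control edge within 20 kb and 32.2% a KO edge. Borders with stayed-B bins had 18.8% and 19.9% (744 borders), and borders inside runs 10.4% and 10.3% (790 borders). Where stayed-A and stayed-B bins met with no switching bin between them, 45.2% and 46.5% of 564 borders had an edge. Borders of the other kinds, inside A or inside B, had 18.2% and 6.10% in control cells.

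Few TADs switched as a whole. Of 6030 control TADs with at least 50% of their length in measured bins, 987 (16.4%) touched a switching bin, 337 had switched over at least 50% of their measured length and 95 had switched entirely. The 337 TADs held 56.1% of the switching length. The same TAD, with both edges within 20 kb, stood in the KO list for 84.1% of the 987 TADs (interval 81.7 to 86.2), 85.8% of the 337 (interval 81.6 to 89.1) and 89.5% of the 95 (interval 81.7 to 94.2). It did so for 87.2% of all control TADs and 87.8% of those without a switching bin.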

How the data were processed

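The authors deposited a table of signed compartment scores per 100 kb bin, with 1 column per replicate and 1 per genotype; how the score was made, scaled and oriented, and how the genotype columns combine replicates, is not given in the sources used here. They also deposited peak positions without scores, TAD positions and raw counts per gene. Whether peak lists pool their 2 libraries is likewise not given. Per the submitters' processing notes, STAR 2.6.1c, edgeR 3.30.0, Bowtie2 2.2.3, SAMtools 1.5, Picard and MACS2 were used on hg19, with no role stated. Per the labels' protocols, Hi-C was in situ with DpnII.

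Bins, runs, coverage (share of a bin inside merged peaks) and edges were computed in Python 3.11.15 with numpy 2.4.6, pandas 2.3.3 and scipy 1.17.1. A bin or peak counted as overlapping from 1 bp. Of 30376 bins, 3880 without a value in some column were left out. Replicate columns were compared with limma 3.58.1 in R 4.3.3, tested on simulated signals. The deposited counts were scaled to the library total (CPM). The KO H3K4me3 libraries, whose antibody label lacks a digit, were placed with the others by the description field. Regions named were the 6 longest runs, the 5 bins with the largest fall, the 3 chromosomes with the highest and the 3 with the lowest shares, and, among runs of 3 bins or more, the 5 largest gains and losses of H3K9me3, the 3 largest gains and losses of H3K27me3 and the 3 largest losses of H3K27ac. KRT18 and SFTPC were chosen after their values were seen. The bins and these rules were chosen with earlier results of these data known. Genes were not placed in bins and no sequence was read, since no annotation or genome of this build was used here; inputs were not used.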

Additional observations from a re-analysis of the deposited data

How the results depend on the processing

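Depth of the Hi-C and ChIP-seq libraries is unknown, so precision rests on 2 replicates of the signal and 1 list per mark. Signals near 0 mattered most: keeping bins whose signal lay above the 10th percentile of its size in both genotypes left 482 bins, with KO H3K9me3 coverage of 14.3% and a KO minus control difference of 1.77 points, turned from -0.78. In these 482 bins H3K9me3 peaks were in 62.4% (KO), H3K27ac in 49.6% (control) and 42.3% (KO), H3K4me3 in 67.8% (KO), CTCF in 41.1% (control) and 57.3% (KO), and TAD edges in 24.9% and 25.1%. The wider 50% of each peak list gave coverage of 9.66% and 8.44% for H3K9me3, 20.8% and 18.0% for H3K27me3 and 1.92% and 1.87% for H3K4me3 (control and KO). Counting an edge within 20 kb gave 38.7% and 40.5%. Leaving out narrower peaks can only lower coverage, and widening the window can only raise the share with an edge. The direction of those moves was therefore fixed in advance. The cause of the moves in the 482 bins was not tested.

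Choosing the bins by 1 replicate of each genotype gave 1567 to 1615 bins in 784 to 821 runs. Leaving out each Hi-C library in turn, limma called 12624 to 15338 bins, 8017 to 9688 of them lower in KO, with 1425 to 1506 switching bins among these. Same-numbered libraries did not deviate together (r = -0.00185 across bins), which cannot show whether they were prepared as pairs. With the replicate number as a block, limma called 15973 bins, 10104 lower and 5869 higher in KO, and 1524 switching bins. Using the mean of the replicates, chosen after seeing the data, is among the alternatives. Over 33 results and 156 alternatives, 137 stayed within the margin set for a like value, 18 moved out of it and 1 reversed. The margins for coverage treated mean coverage as a share of bins, so they were wide for small values. For control CTCF the margin ran from 0.065% to 0.559%, and 0.122% counted as kept beside 0.203%. Dividing the columns by their SD cannot change a sign, so that count of bins was fixed in advance. The number kept is thus a description and no measure of robustness.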

Other observations

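Of the 3880 bins without a value in some column, 52 had a value in both genotype columns. Among these, 1 bin had a control signal above 0 and a KO signal below 0, and 6 went the other way. Another 312 bins had a value in the KO column but not in the control column, 134 of them below 0, and 19 had a value in the control column alone, 6 of them above 0.

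Very wide H3K9me3 peaks of KO cells overlapped few switching bins. Of 676 KO H3K9me3 peaks of at least 100 kb, 12 touched a switching bin. They touched 27 switching bins (1.72%), 1591 bins that stayed B (15.4%) and 0 of the bins that stayed A. Most bins that stayed B were thus untouched as well, and the distance from these peaks to the switching bins was not measured.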
